A study of Mus musculus with 9 samples.

Results

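The genes described here encode 10 integrin chains that bind the extracellular matrix and are not confined to leukocytes, out of 32285 genes in the files. They are the β chains Itgb6, Itgb1, Itgb3 and Itgb5 and the α chains Itgav, Itga1, Itga5, Itga7, Itga8 and Itga9. They were taken by name, and Itgb6 was chosen by its measured values: its strong loss in cardiomyocyte nuclei after injury in these same data. That loss is therefore described with no test. Nuclear RNA of mouse hearts was sequenced in 9 libraries, 3 in each group. The labels call them replicates without saying that each came from its own mouse, so the p-values below measure the spread between these libraries. All mice were wild-type males of 9 to 10 weeks and received 2 intraperitoneal injections, the first 1 h before ischemia. NS-Sham hearts received normal saline and a thoracotomy without coronary occlusion. NS-I/R hearts received saline, 45 min of occlusion of the left anterior descending artery and 24 h of reperfusion (I/R). Enpa-I/R hearts had the same injury with enpatoran, which blocks the RNA receptor TLR7, in doses of 5 mg/kg. The labels disagree on when the second injection was given, and no sham group received enpatoran. Each library came from powdered heart tissue, so nuclei of injured and spared myocardium are mixed, and nothing in the labels says which is which.

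Integrins are pairs of one α and one β chain that span the cell membrane and tie matrix proteins outside the cell to the actin skeleton inside it. Itgb1 pairs with many α chains, among them Itga1 (collagen and laminin), Itga5 (fibronectin), Itga7 (laminin, the main partner in striated muscle), Itga8 and Itga9. Itgav pairs with Itgb1, Itgb3, Itgb5 and Itgb6; the pair with Itgb6 is best known from epithelia, where it releases active TGF-β from its latent complex.

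The libraries held 19.7 to 39.0 M UMIs (unique molecular identifiers, the counted molecules) and 3160 to 6471 nuclei after filtering, with a median of 2365 to 3263.5 UMIs per nucleus. Nuclei were grouped in 13 classes named from marker genes, and the suffix "-like" marks that these names were rebuilt here. Summed over the 8 cardiomyocyte markers, cardiomyocyte-like nuclei of NS-Sham held 682 UMIs per nucleus and B lymphocyte-like nuclei 8.90, which shows the level of free cardiomyocyte RNA in nuclei of other types. NS-I/R replicate 3 stood apart from the other 2 NS-I/R libraries. Over genes, its counts differed from theirs with a chi-square per degree of freedom of 64.2 and 75.0, against 9.40 to 22.8 between other libraries of one group. Calls that change without this library are named or counted with each comparison. No 2 libraries shared more than 20 cell barcodes.

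**Figure D1:**
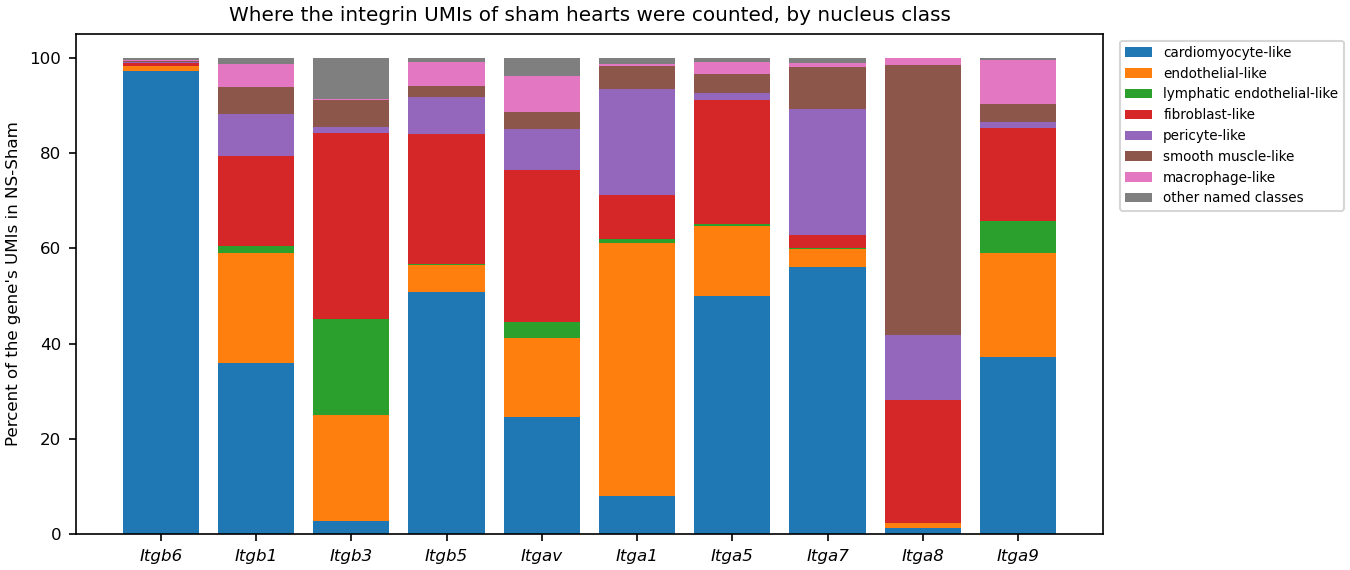
Share of each integrin gene's UMIs (percent, vertical axis) that came from each nucleus class in the 3 NS-Sham libraries together. Itgb6 came almost wholly from cardiomyocyte-like nuclei (97.2%), Itga8 mostly from smooth muscle-like nuclei, and the other chains from several classes.

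In sham hearts the chains differed in where they were counted, as the plot of UMI sources by class shows. Itgb6 (ENSMUSG00000026971, chromosome 2) stood at 3.34 ± 0.339 UMIs per cardiomyocyte-like nucleus (mean ± SD, n = 3 libraries, as for all values with ± here). Of its 11282 UMIs in named classes, 97.2% lay in cardiomyocyte-like nuclei. In endothelial-like, fibroblast-like, pericyte-like and macrophage-like nuclei it stood at 0.0251, 0.0272, 0.0296 and 0.0206 UMIs per nucleus, a like low level that is read as background and not as expression. Smooth muscle-like nuclei stood at 0.0562, and also held 59.3 cardiomyocyte-marker UMIs per nucleus. The cardiomyocyte markers include Pln, which is also among the smooth muscle markers used here, so this sum can hold RNA of the class itself. T and NK lymphocyte-like nuclei of NS-Sham held 34 Itgb6 UMIs in 58 nuclei, from 3 nuclei alone, and that class also held 68.4 cardiomyocyte-marker UMIs per nucleus.

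Itga8 was highest in smooth muscle-like nuclei, at 6.61 ± 1.98 UMIs per nucleus in NS-Sham, and 18.1 times lower in pericyte-like nuclei, the next class. Itga9, a chain that lymphatic vessels need for their valves, was highest in lymphatic endothelial-like nuclei at 4.76 ± 0.805 UMIs per nucleus, 2.70 times the level of smooth muscle-like nuclei. Itga1 was highest in smooth muscle-like (2.94 ± 1.07) and pericyte-like nuclei (2.81 ± 0.521), which overlapped, and then in endothelial-like nuclei (1.72 ± 0.0956). Itga7 stood at 0.840 ± 0.0696 in smooth muscle-like, 0.553 ± 0.052 in pericyte-like and 0.393 ± 0.0513 in cardiomyocyte-like nuclei, and the next class was 15.1 times lower than the last of these. Itgb3 was led by lymphatic endothelial-like nuclei at 0.456 ± 0.161, apart from the next class by 4.91 times. Itgb5 was led by cardiomyocyte-like nuclei at 1.31 ± 0.281, and Itgb1 by smooth muscle-like nuclei at 2.67 ± 1.10, both with the other classes less far behind. Itgav was led by lymphatic endothelial-like nuclei (0.770 ± 0.248), which overlapped smooth muscle-like nuclei (0.514 ± 0.0556). Itga5 was alike in smooth muscle-like (0.694 ± 0.315) and cardiomyocyte-like nuclei (0.693 ± 0.0978). These levels per nucleus also carry the depth of the classes, since cardiomyocyte-like nuclei held several times more UMIs than the others. As counts per M UMIs of the class (CPM), Itgb5 in cardiomyocyte-like nuclei of NS-Sham stood at 131. Fibroblast-like (264), pericyte-like (247), macrophage-like (225) and smooth muscle-like nuclei (196) lay above it, endothelial-like (50.9) and lymphatic endothelial-like nuclei (24.3) below. Itga5 stood at 175 ± 93.0 CPM in smooth muscle-like and 70.1 ± 5.00 CPM in cardiomyocyte-like nuclei.

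In cardiomyocyte-like nuclei, I/R went with a loss of Itgb6 and a gain of Itgb1, Itga5 and Itga7. The sequence before the transcription start is shown for the chain that fell and for both of the gaining chains that the promoter table holds, since they moved in opposite directions in the same nuclei. Each line gives the 250 bases before the start, 5′ to 3′ on the gene's own strand, from RefSeq on build GRCm38.p6, with GC boxes (GGGCGG or its reverse complement) in capitals.
Itgb6: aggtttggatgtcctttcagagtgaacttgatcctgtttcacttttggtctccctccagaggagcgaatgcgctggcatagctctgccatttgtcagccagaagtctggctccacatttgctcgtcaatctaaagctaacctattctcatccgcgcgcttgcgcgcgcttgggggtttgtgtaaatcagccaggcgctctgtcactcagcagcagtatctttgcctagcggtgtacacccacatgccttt
Itgb1: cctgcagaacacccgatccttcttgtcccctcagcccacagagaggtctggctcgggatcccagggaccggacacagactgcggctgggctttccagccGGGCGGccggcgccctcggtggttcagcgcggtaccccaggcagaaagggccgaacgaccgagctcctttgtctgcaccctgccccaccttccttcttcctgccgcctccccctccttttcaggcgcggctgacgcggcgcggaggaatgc
Itga5: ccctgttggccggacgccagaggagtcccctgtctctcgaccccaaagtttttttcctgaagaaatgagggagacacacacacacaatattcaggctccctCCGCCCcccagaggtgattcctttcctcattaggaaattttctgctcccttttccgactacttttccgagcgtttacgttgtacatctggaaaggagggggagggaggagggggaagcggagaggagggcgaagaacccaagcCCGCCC
The Itgb6 stretch is chr2:60722604-60722853 on the minus strand, with 52.0% G and C and no GC box. The Itgb1 stretch is chr8:128685404-128685653 on the plus strand, with 68.0% G and C and 1 GC box, and the Itga5 stretch is chr15:103366792-103367041 on the minus strand, with 55.6% and 2 GC boxes. Of 32851 promoter stretches of this length, 32.7% held a GC box on either strand and the median content of G and C was 52.4%. The table held a start for 8 of the 10 members, with 2 starts for Itgb6 and none for Itga7 and Itgb3, and 3 of these 9 stretches held a GC box. None of the 9 held the AP-1 letters TGANTCA (6.75% of all stretches), TATAAA (12.4%) or AGATAA (9.99%), and the Itgb1 stretch alone held CATTCC (12.6%). A match is a description of letters and shows no binding.

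**Figure D2:**
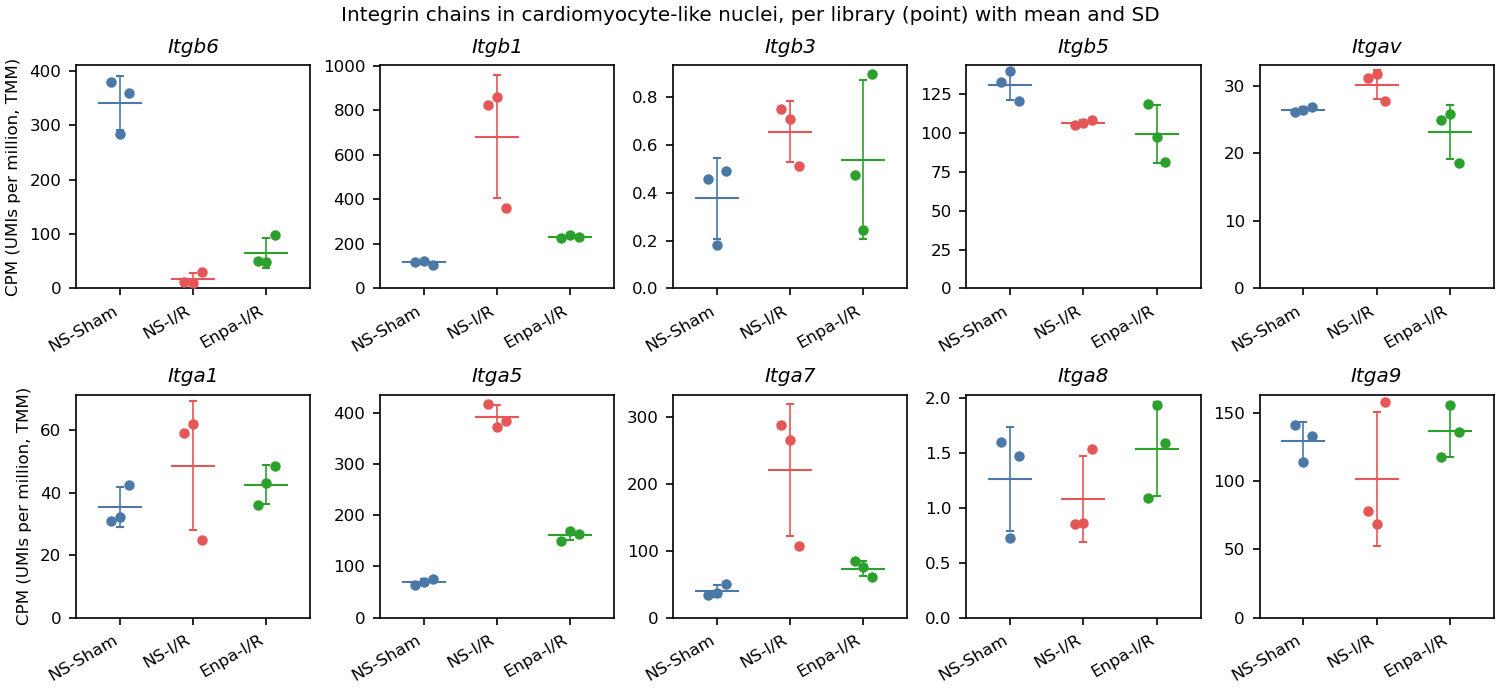
Level of each integrin gene in cardiomyocyte-like nuclei (CPM, linear axis from 0) in 9 libraries, with the mean (line) and SD (bar) of 3 libraries per group. Itgb6 is high in all NS-Sham libraries and low in all NS-I/R libraries, while Itgb1, Itga5 and Itga7 are lowest in NS-Sham; NS-I/R replicate 3 (the right point of its group) lies between the groups for Itgb1 and Itga7.

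Itgb6 stood at 380, 285 and 359 CPM in NS-Sham replicates 1 to 3, at 12.7, 10.4 and 29.8 CPM in NS-I/R and at 50.9, 49.5 and 97.9 CPM in Enpa-I/R. CPM are counts per M UMIs of the class in a library, scaled by TMM. The 3 groups did not overlap, and within both I/R groups replicate 3 was the highest. The NS-I/R mean of 17.7 ± 10.6 CPM was 19.4-fold lower than the NS-Sham mean of 341 ± 50.2 CPM on the fitted scale, a log2 fold change of -4.28. This is the value on which Itgb6 was chosen, and no test is given. It was -4.89 without NS-I/R replicate 3.

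The share of cardiomyocyte-like nuclei with at least 1 Itgb6 UMI was 66.2%, 69.8% and 68.9% over the NS-Sham replicates. It was 9.27%, 7.21% and 16.4% over the NS-I/R replicates and 24.3%, 25.9% and 32.7% over the Enpa-I/R replicates. After each nucleus was thinned to 1000 UMIs, so that depth could not differ, the shares were 24.7 ± 3.87%, 1.68 ± 0.955% and 5.23 ± 2.38%. Thinning left out 55, 20 and 39 shallower nuclei. In fibroblast-like nuclei, read as background, the thinned shares were 0.797 ± 0.567%, 0.359 ± 0.0648% and 0.573 ± 0.0992%. Median UMIs per nucleus were 6459.5 to 9727 in cardiomyocyte-like and 2642.5 to 3383 in fibroblast-like nuclei of NS-Sham libraries. Fewer nuclei with Itgb6 and less RNA per nucleus both lower such a share, and the highest single nucleus held 44 UMIs in NS-Sham against 7 in NS-I/R.

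**Figure D3:**
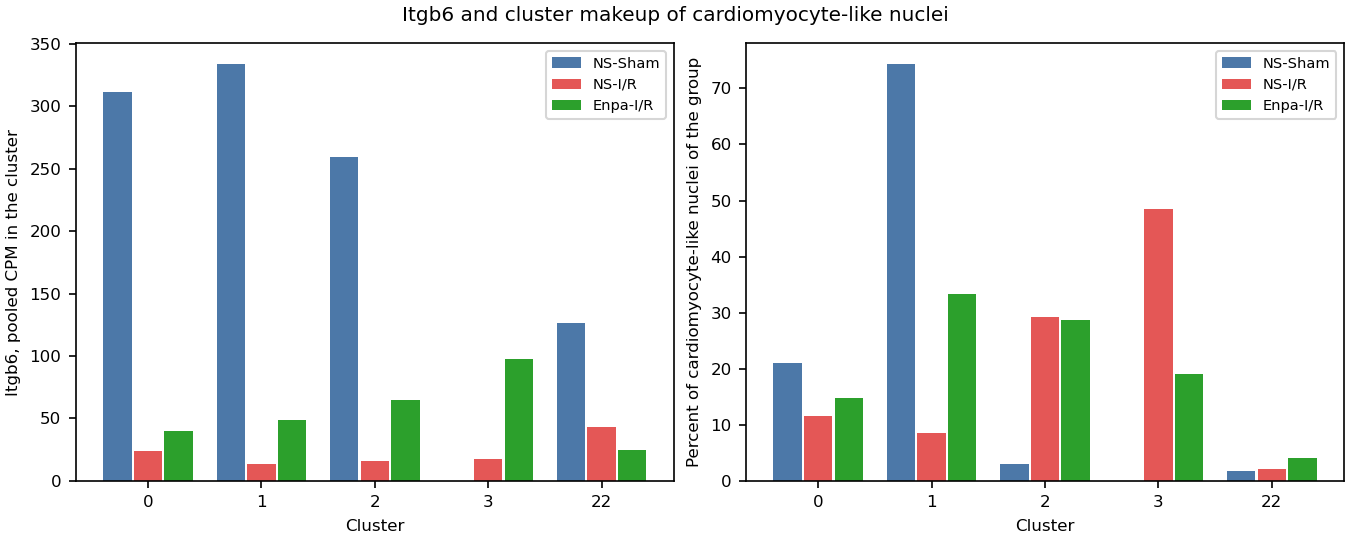
Left, Itgb6 level (pooled CPM, axis from 0) in each cardiomyocyte cluster and group, without values where a group had fewer than 10 nuclei; right, percent of each group's cardiomyocyte-like nuclei in the cluster. Itgb6 was lower in NS-I/R than in NS-Sham in each of the 4 clusters with at least 10 nuclei from both groups, while the clusters' shares shifted between groups.

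Cardiomyocyte-like nuclei fell into clusters 0, 1, 2, 3 and 22, found without the integrin genes. Cluster 1 was the largest in NS-Sham, with 74.3% of the nuclei, and in Enpa-I/R, with 33.4%, but not in NS-I/R. Cluster 3 made up 48.5% of the NS-I/R nuclei and had 1 nucleus from NS-Sham. Itgb6 was low in NS-I/R within clusters as well. In cluster 1 it stood at 353 ± 63.5 CPM in NS-Sham, 15.2 ± 12.4 CPM in NS-I/R and 49.0 ± 18.7 CPM in Enpa-I/R. In cluster 0, of shallower nuclei, the values were 306 ± 71.0, 25.3 ± 18.4 and 37.5 ± 24.1 CPM. In cluster 2 they were 259 ± 80.2, 15.8 ± 8.53 and 67.0 ± 27.9 CPM. Cluster 3 stood at 21.0 ± 18.2 CPM in NS-I/R and 97.3 ± 31.7 CPM in Enpa-I/R. In cluster 22, led by genes that include Nppa and Myl4, known from atrial muscle, the pooled level was 127 CPM in NS-Sham from 57 UMIs, 43.2 CPM in NS-I/R from 20 and 24.9 CPM in Enpa-I/R from 19.

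Itgb1 (ENSMUSG00000025809), the common β chain, stood at 120, 123 and 107 CPM in NS-Sham and at 823, 862 and 362 CPM in NS-I/R cardiomyocyte-like nuclei. The groups did not overlap, and NS-I/R replicate 3 was the lowest of its group by far. The log2 fold change was 2.54 (SE 0.28, edgeR adjusted p 9.58e-05), and 2.85 without replicate 3. Itga7 (ENSMUSG00000025348), its laminin-binding partner in muscle, stood at 34.1, 36.7 and 49.9 CPM in NS-Sham and at 289, 267 and 108 CPM in NS-I/R, with replicate 3 again the lowest (log2 fold change 2.46 ± 0.33 SE, adjusted p 0.000304 by edgeR). Without that library the log2 fold change of Itga7 was 2.79. Itga5 (ENSMUSG00000000555), the fibronectin-binding chain, stood at 64.8, 70.7 and 74.7 CPM in NS-Sham and at 418, 373 and 384 CPM in NS-I/R, with all libraries of a group close together (log2 fold change 2.48 ± 0.12 SE, adjusted p 2.17e-06 by edgeR).

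Of the 10 members, 9 passed the low-count filter in cardiomyocyte-like nuclei and 8 were tested. Of these 8, 3 rose and 5 did not pass (Itgb5, Itgav, Itga1, Itga8 and Itga9). Over all genes tested in this class 45.2% were called changed, 23.7% higher and 21.5% lower, so that 3 of 8 is not far from the background. Itga9 stood at 129 ± 13.8 CPM in NS-Sham and at 78.3, 68.7 and 158 CPM in NS-I/R, where replicate 3 lay above all sham libraries. Its log2 fold change was -0.35, and without that library it was -0.81 and passed (edgeR adjusted p 0.000562), as it did within the clusters that both groups filled (-0.92, 0.0365). Itga1 likewise went from 0.47 to 0.78 and passed without NS-I/R replicate 3 (edgeR adjusted p 0.00167). Itgb3, with 11 to 21 UMIs per group, was below the filter.

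The gains were not equal over clusters. In cluster 3, with 1 nucleus from sham hearts, Itgb1 stood at 981 ± 330 CPM, Itga5 at 629 ± 68.7 CPM and Itga7 at 311 ± 131 CPM in NS-I/R. In cluster 2 of the same hearts they stood at 322 ± 71.5, 124 ± 51.1 and 104 ± 10.8 CPM, and in cluster 1 at 232 ± 54.0, 78.7 ± 24.4 and 83.8 ± 31.9 CPM. NS-Sham cluster 1 held 118 ± 7.61, 68.2 ± 3.85 and 40.1 ± 8.74 CPM, and NS-Sham cluster 2 held 134 ± 12.8, 121 ± 47.8 and 55.2 ± 9.25 CPM. Itga5 thus differed by less than the NS-I/R SD between these groups in clusters 1 and 2. In cluster 1 the difference was above the NS-Sham SD, and the pooled levels were 67.7 and 91.5 CPM. The smallest NS-I/R library held 22 nuclei of that cluster. In cluster 0 Itga5 went from 87.6 ± 25.4 to 192 ± 47.6 CPM. Cluster 3 held 53.8%, 55.4% and 36.4% of cardiomyocyte-like nuclei in NS-I/R replicates 1 to 3. Within the clusters that both groups filled, the log2 fold changes were smaller, at 1.46 for Itgb1, 1.40 for Itga7 and 0.78 for Itga5 (edgeR adjusted p 0.00406, 0.00452 and 0.0232), while that of Itgb6 was -4.44. Neutrophil markers, 8 genes, moved with the groups in cardiomyocyte-like nuclei: their summed level was 0.00825 to 0.0235 UMIs per nucleus in NS-Sham libraries with 1 marker at 0, 0.283 to 0.664 in NS-I/R and 0.143 to 0.375 in Enpa-I/R. In neutrophil-like nuclei of NS-I/R the same markers summed to 9.07 UMIs per nucleus, while Itgb1, Itga5 and Itga7 stood there at 0.531, 0.361 and 0.0510 UMIs per nucleus, below their levels in cardiomyocyte-like nuclei. The part of leukocyte RNA in these results was not tested.

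**Figure D4:**
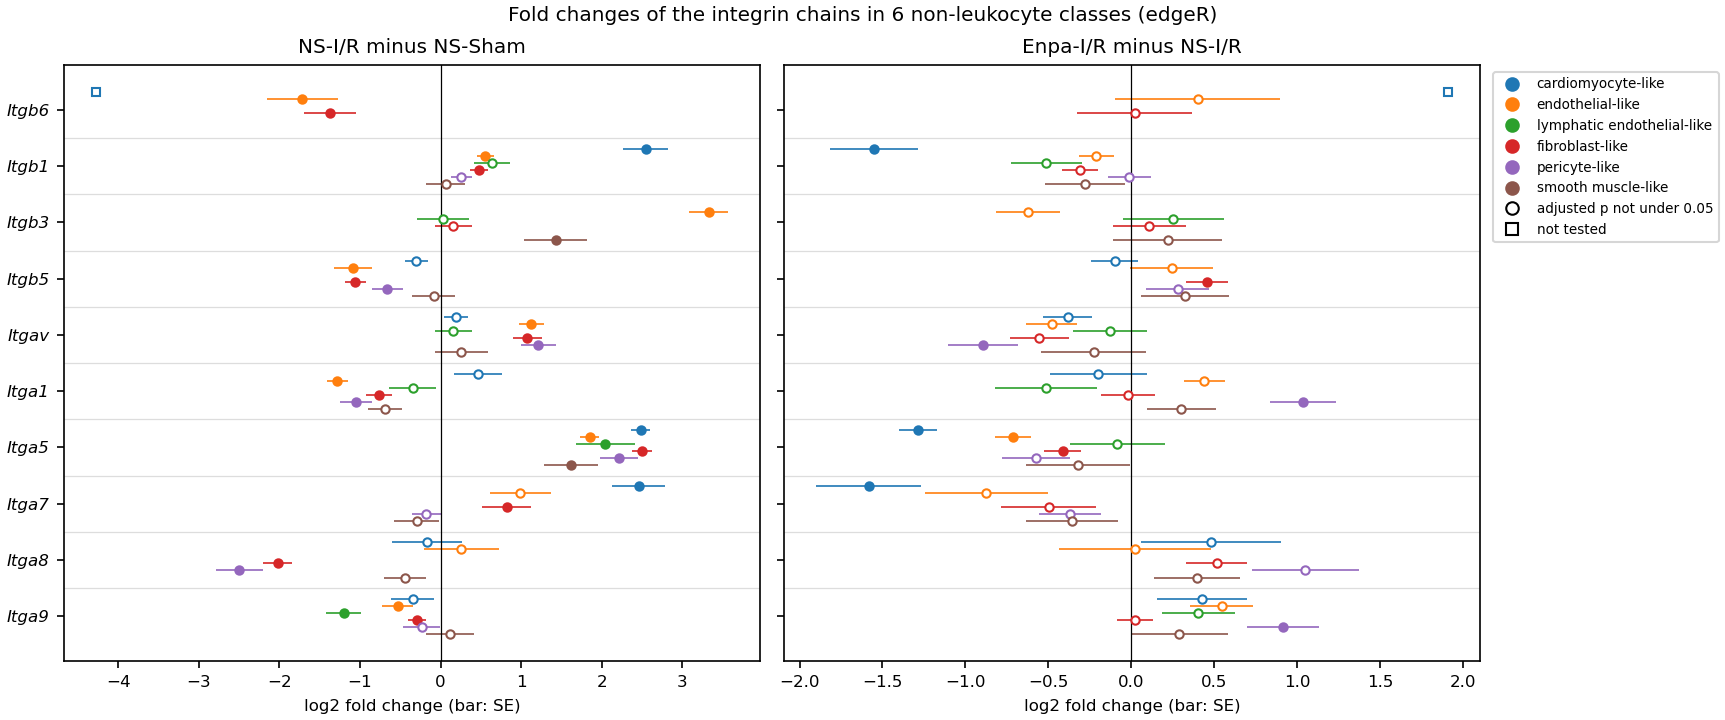
Log2 fold changes (horizontal axis, bar: standard error) of the integrin genes in 6 non-leukocyte classes for NS-I/R against NS-Sham (left) and Enpa-I/R against NS-I/R (right); filled points passed an edgeR adjusted p of 0.05, open points did not, and open squares were not tested. In the left panel Itga5 lies right of 0 in all 6 classes and Itga8 left of it in fibroblast-like and pericyte-like nuclei.

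Across the 6 tested classes other than leukocytes there were 60 pairs of member and class, of which 52 passed the filter and 51 were tested for NS-I/R against NS-Sham. The expression differed in 29 of them, 16 higher and 13 lower in NS-I/R, and in 31 when NS-I/R replicate 3 was left out. The share of all genes called was 34.2% in endothelial-like, 46.5% in fibroblast-like, 24.3% in pericyte-like, 13.7% in lymphatic endothelial-like and 6.33% in smooth muscle-like nuclei. Of all genes, 17.8%, 23.3%, 12.2%, 5.87% and 2.75% were called higher in these 5 classes in turn, and 16.4%, 23.2%, 12.1%, 7.84% and 3.58% lower. Against these, members were called in 8 of 10 pairs in endothelial-like, 9 of 10 in fibroblast-like, 5 of 8 in pericyte-like, 2 of 6 in lymphatic endothelial-like and 2 of 9 in smooth muscle-like nuclei. In 5 of the 29 pairs the higher group stood at or under the level in B lymphocyte-like nuclei, or the limit of 3 UMIs where fewer were counted there. Of these, Itgb6 in endothelial-like and fibroblast-like, Itga7 in fibroblast-like and Itgb3 in smooth muscle-like nuclei are read as background. Itga5 in pericyte-like nuclei is not told apart from it. For Itgb6 and Itga7 the limit decided, with 0 and 1 UMIs in B lymphocyte-like nuclei. These 5 were singled out after their values were seen. The Itgb6 calls in endothelial-like and fibroblast-like nuclei, both lower, come from the libraries on which Itgb6 was chosen. They are in the counts above but are no result apart from that choice.

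Itga5 was higher after I/R in each of the 6 classes and in macrophage-like nuclei. In fibroblast-like nuclei it stood at 135, 132 and 119 CPM in NS-Sham and at 664, 699 and 821 CPM in NS-I/R. The log2 fold change was 2.50 ± 0.12 (SE), with an adjusted p of 2.92e-07 by edgeR. In endothelial-like nuclei it went from 74.2 ± 6.55 to 267 ± 23.1 CPM (log2 fold change 1.85 ± 0.12 SE, adjusted p 7.26e-07 by edgeR), and in macrophage-like nuclei from 54.4 ± 7.35 to 233 ± 14.4 CPM (2.08). Lymphatic endothelial-like nuclei rose from 58.7 ± 26.9 to 223 ± 79.7 CPM (2.05). In smooth muscle-like nuclei NS-Sham spread from 80.8 to 267 CPM and NS-I/R from 412 to 626 CPM, without overlap (1.62, edgeR adjusted p 0.0121), and the call was lost without NS-Sham replicate 3 or NS-I/R replicate 2. Pericyte-like nuclei went from 23.3 ± 0.505 to 108 ± 12.5 CPM (2.21). B lymphocyte-like nuclei, too few to test, held no Itga5 UMI in 104 nuclei of NS-Sham and 23 UMIs in 90 nuclei of NS-I/R. That is 125 UMIs per M, above the 113 of pericyte-like nuclei, so that the NS-I/R pericyte-like value is not told apart from background. In Enpa-I/R the pericyte-like level of 69.6 UMIs per M was above the 33.6 of B lymphocyte-like nuclei (4 UMIs). The summed level of the 8 neutrophil markers, as UMIs per nucleus, went between the same groups from 0.0309 to 0.392 in the endothelial-like class, from 0.0098 to 0.383 in the fibroblast-like class and from 0.00697 to 0.537 in the pericyte-like class, and the part of these transcripts in the Itga5 values was not tested.

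**Figure D5:**
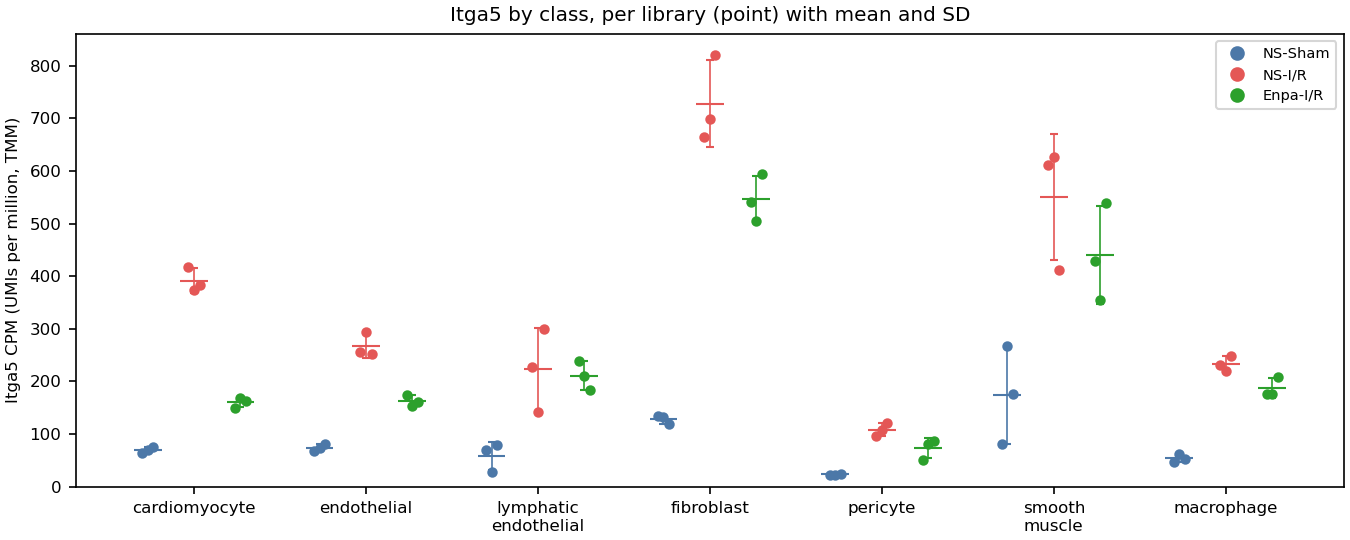
Itga5 (CPM, linear axis from 0) in 7 nucleus classes and 9 libraries, with the mean and SD of 3 libraries per group. All NS-I/R points lie above the NS-Sham points of their class, and in cardiomyocyte-like and endothelial-like nuclei the Enpa-I/R points lie between.

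In fibroblast-like and endothelial-like nuclei Itga5 was also higher inside clusters. In fibroblast cluster 10, which held 77.0% of fibroblast-like nuclei in NS-Sham, the pooled level went from 106 to 258 CPM, and in cluster 11 from 193 to 564 CPM. Cluster 12, with 43.0% of the NS-I/R nuclei and 11 nuclei in NS-Sham, stood at 1132 CPM in NS-I/R. In endothelial clusters 4 and 23 the pooled level went from 53.3 to 84.3 CPM and from 76.0 to 400 CPM. Within clusters that both groups filled the log2 fold change was 1.75 for fibroblast-like and 1.58 for endothelial-like nuclei, against the 0.78 given above for cardiomyocyte-like nuclei.

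Among the other fibronectin and vitronectin receptor chains outside cardiomyocytes, Itgb3 and Itgav rose, while Itgb5 and Itga8 fell. Itgb3 in endothelial-like nuclei stood at 7.64, 11.1 and 8.41 CPM in NS-Sham and at 100, 96.0 and 87.4 CPM in NS-I/R. The log2 fold change was 3.33 ± 0.24 (SE), with an adjusted p of 1.90e-06 by edgeR. The groups lay far apart, and the log2 fold change was 3.03 within shared clusters. Pooled over the endothelial-like nuclei of NS-I/R, Itgb3 stood at 96.5 UMIs per M, little above the 86.7 of B lymphocyte-like nuclei (16 UMIs). Itgav, its α partner, rose in endothelial-like nuclei from 62.5 ± 10.4 to 137 ± 13 CPM (1.13), in fibroblast-like nuclei from 124 ± 12.9 to 262 ± 74.4 CPM (1.08) and in pericyte-like nuclei from 111 ± 7.62 to 258 ± 85.2 CPM (1.21). Within shared clusters Itgav did not pass in fibroblast-like (0.31, edgeR adjusted p 0.259) or pericyte-like nuclei (0.27, 0.354) and passed in endothelial-like nuclei (0.69, 0.0122). The pericyte-like call was also lost at a mitochondrial limit of 20%. Itgb1 rose by smaller amounts in endothelial-like (0.56) and fibroblast-like nuclei (0.48), and neither passed within shared clusters (edgeR adjusted p 0.0564 and 0.303). Without NS-I/R replicate 3, Itga7 in endothelial-like (1.25, edgeR adjusted p 0.00752) and Itgb1 in lymphatic endothelial-like nuclei (0.71, 0.0352) passed as well.

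The chains that fell were Itga8, Itga1, Itgb5 and Itga9. Itga8 (ENSMUSG00000026768) in pericyte-like nuclei stood at 186, 137 and 117 CPM in NS-Sham and at 12.5, 22.1 and 42.6 CPM in NS-I/R (fitted log2 fold change -2.49 ± 0.30 SE, adjusted p 1.88e-05 by edgeR). NS-I/R replicate 3 was again the closest to sham, and without it the log2 fold change was -3.09. In fibroblast-like nuclei Itga8 went from 84.5 ± 7.45 to 20.7 ± 3.33 CPM (-2.02). In smooth muscle-like nuclei, where most of it was counted, it did not pass, at 1627 ± 610 CPM in NS-Sham and 1201 ± 233 CPM in NS-I/R.

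Itga1, a collagen receptor chain, went in endothelial-like nuclei from 793, 824 and 850 CPM in NS-Sham to 405, 309 and 304 CPM in NS-I/R (fitted log2 fold change -1.28 ± 0.13 SE, adjusted p 1.83e-05 by edgeR). It fell in pericyte-like nuclei from 1141 ± 78.4 to 549 ± 184 CPM (-1.05) and in fibroblast-like nuclei from 149 ± 16.1 to 87.8 ± 21.9 CPM (-0.76; -0.24 within shared clusters, edgeR adjusted p 0.283). Itga1 contains the gene Pelo on its own strand, so that reads of the 2 genes may not be separable. Itgb5, which pairs with Itgav, fell in endothelial-like (-1.09), fibroblast-like (-1.06) and pericyte-like nuclei (-0.66), from 264 ± 23.2 to 127 ± 14.9 CPM in the fibroblast-like class. The pericyte-like call was lost within shared clusters (edgeR adjusted p 0.152). Itga9 went from 1559, 1385 and 2188 CPM to 696, 582 and 939 CPM in lymphatic endothelial-like nuclei (-1.20, SE 0.22, edgeR adjusted p 0.000745), with no overlap. Its smaller falls in endothelial-like (-0.53) and fibroblast-like nuclei (-0.29) had edgeR adjusted p of 0.0473 and 0.0472, and were lost without NS-I/R replicate 2 among others.

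In macrophage-like nuclei, a leukocyte class given for comparison (34.9% of genes called, 18.1% higher and 16.8% lower), 4 of 8 tested members changed. Itga9 fell from 511 ± 49.3 to 114 ± 54.1 CPM (-2.15 on the log2 scale, edgeR adjusted p 1.39e-05) and Itgb5 from 225 ± 28.8 to 127 ± 57.1 CPM (-0.81). Itga1 rose from 34.1 ± 10.8 to 67.2 ± 22.3 CPM (0.90), the opposite direction to its fall in endothelial-like, fibroblast-like and pericyte-like nuclei. The class was made up of clusters 13 and 14, whose sizes changed differently. Cluster 13 held 769 NS-Sham, 690 NS-I/R and 742 Enpa-I/R nuclei. Cluster 14, with Arg1 and Msr1 among its top genes, held 55, 717 and 396 nuclei of these groups in turn.

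What enpatoran changed in injured hearts was read from Enpa-I/R against NS-I/R. In cardiomyocyte-like nuclei 3 of the 8 tested members differed, all of them lower in Enpa-I/R, against 18.8% of all genes in that class (7.61% higher and 11.2% lower). Itgb6 was not tested, since it was chosen on the low NS-I/R values that enter this comparison. Its Enpa-I/R mean of 66.1 ± 27.6 CPM stood against 17.7 ± 10.6 CPM after saline, with a fitted log2 fold change of 1.91. That value became 2.51 with NS-I/R replicate 3 left out, and 1.52 with Enpa-I/R replicate 3, the highest library of its group, left out. All Enpa-I/R libraries still lay below all NS-Sham libraries.

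Itga5 in cardiomyocyte-like nuclei stood at 150, 168 and 163 CPM in Enpa-I/R, apart from both NS-I/R (373 to 418 CPM) and NS-Sham (64.8 to 74.7 CPM). It was lower than in NS-I/R by a log2 fold change of -1.29 ± 0.11 (SE), with an adjusted p of 0.00214 by edgeR. Itgb1 stood at 228, 239 and 232 CPM in Enpa-I/R, against 823, 862 and 362 CPM (log2 fold change -1.55 ± 0.27 SE, adjusted p 0.0106 by edgeR; lost without Enpa-I/R replicate 3). Itga7 was also lower, at 84.4, 75.3 and 61.4 CPM (-1.58, SE 0.32, edgeR adjusted p 0.0154), a call lost without any 1 of NS-I/R replicates 1 and 2 or Enpa-I/R replicates 1, 2 and 3. Cluster 3 held 19.0% of cardiomyocyte-like nuclei in Enpa-I/R against 48.5% in NS-I/R, and within it Itga5 stood at 337 ± 75.6 against 629 ± 68.7 CPM. Itga5 was not lower in Enpa-I/R in clusters 1 and 2, at 96.4 ± 8.48 against 78.7 ± 24.4 CPM and at 133 ± 13.6 against 124 ± 51.1 CPM. In cluster 0 it was lower, at 132 ± 5.76 against 192 ± 47.6 CPM. The pooled level in cluster 22 was 113 CPM from 86 UMIs against 695 CPM from 322. Without NS-I/R replicate 3, Itgav (-0.45), Itga9 (0.88, against 0.42 with it) and Itga1 (-0.52, against -0.20) also passed, with edgeR adjusted p of 0.0278, 0.000553 and 0.0216.

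In the other 5 non-leukocyte classes 6 pairs of member and class differed. In endothelial-like nuclei (6.13% of genes called) Itga5 was the member called, with 163 ± 10.9 CPM in Enpa-I/R and 267 ± 23.1 CPM in NS-I/R (fitted log2 fold change -0.71 ± 0.11 SE, adjusted p 0.00583 by edgeR). Without NS-I/R replicate 3, 6 more members passed there: Itgav (-0.46), Itgb1 (-0.28), Itga7 (-1.13) and Itgb3 (-0.66) were lower and Itga9 (0.80) and Itga1 (0.37) higher, with edgeR adjusted p of 0.00201 to 0.0396. In fibroblast-like nuclei (9.64%) Itga5 was lower, at 546 ± 44.8 against 728 ± 82.3 CPM (-0.41, edgeR adjusted p 0.0418), and Itgb5 higher, at 174 ± 18.2 against 127 ± 14.9 CPM (0.46, 0.0431). Both fibroblast-like calls were lost when any library other than NS-I/R replicate 3 was left out, and within shared clusters (edgeR adjusted p 0.0921 and 0.0855). Without NS-I/R replicate 3, Itgav (-0.74, edgeR adjusted p 0.000454), Itgb1 (-0.40, 0.00212) and Itga8 (0.55, 0.0367) passed as well. In pericyte-like nuclei (5.95%) Itga1 was higher, at 1128 ± 215 against 549 ± 184 CPM (1.04, edgeR adjusted p 0.0107), as was Itga9 (0.91), and Itgav was lower, at 138 ± 20.7 against 258 ± 85.2 CPM (-0.90). All 3 pericyte-like calls were lost without NS-I/R replicate 1, NS-I/R replicate 2 or Enpa-I/R replicate 3, and those of Itgav and Itga9 also without Enpa-I/R replicate 1 or 2. At a mitochondrial limit of 20% Itgav was at -0.08 (edgeR adjusted p 0.827) and the Itga1 call was lost too, and Itgav also did not pass within shared clusters (-0.89, 0.0656). Pericyte cluster 17, with 241 NS-I/R nuclei and 50 Enpa-I/R nuclei, held Itgav at 734 ± 378 and 300.4 ± 43.4 CPM, and cluster 15 held it at 136 ± 22.3 and 126 ± 17.5 CPM. Without NS-I/R replicate 3, Itga8 (1.65, against 1.05 with it) and Itgb5 (0.55, against 0.28) passed, with edgeR adjusted p of 0.0006 and 0.0184. No member was called in lymphatic endothelial-like (1.06% of genes called) or smooth muscle-like nuclei (0.0143%). Of the 9 calls, those of Itga5 in cardiomyocyte-like and endothelial-like nuclei alone held in every alternative and with each library left out. In macrophage-like nuclei (6.17%) Itga9 was higher in Enpa-I/R, at 328 ± 34.8 against 114 ± 54.1 CPM (1.51, edgeR adjusted p 0.00322). The clusters of that class also differed in size between these groups, as given above.

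Enpa-I/R and NS-Sham differed in 15 of 51 pairs, and in 25 of 52 when NS-I/R replicate 3, which enters the estimate of the spread, was left out. This comparison shares libraries with both of the others and is given for its values alone. Itga5 stayed higher than in NS-Sham in cardiomyocyte-like (log2 fold change 1.20; 18% of genes called), endothelial-like (1.14; 10.8%), fibroblast-like (2.08; 24.2%), lymphatic endothelial-like (1.96; 1.25%) and pericyte-like nuclei (1.64; 5.32%). Itgb3 in endothelial-like nuclei stood at 60.9 ± 19.1 CPM in Enpa-I/R (2.71). That level, 63.1 UMIs per M over the pooled nuclei, was under the 75.7 of B lymphocyte-like nuclei and is read as background, as are the calls of Itgav in endothelial-like and Itgb6 in fibroblast-like nuclei. Itga8 in fibroblast-like and pericyte-like nuclei stood at 29.9 ± 6.21 and 53.9 ± 4.45 CPM (-1.50 and -1.45). No member was called in smooth muscle-like nuclei (0.358% of genes).

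Genes around the integrins were read from lists of ligands, linkers, kinases and adaptors, TGF-β activation genes and further integrin chains. In cardiomyocyte-like nuclei after I/R, 13 of 19 tested activators and linkers were higher and 2 lower (median log2 fold change 0.62, against 0.01 over all genes, of which 23.7% were called higher and 21.5% lower). Actn1 and Flna, which crosslink actin, went from 32.3 ± 3.06 to 374 ± 61.1 CPM and from 11.9 ± 2.19 to 125 ± 4.63 CPM (log2 fold changes 3.53 and 3.40), and Tln1, a talin that binds β tails, from 25.8 ± 2.34 to 114 ± 6.39 CPM (2.15). Of 20 tested matrix ligands 10 were higher and 3 lower (median 1.02). The basement membrane collagens Col4a1 and Col4a2 had log2 fold changes of 3.51 and 3.00, and Ccn2, a matricellular ligand of integrins, one of 2.66. Of 14 kinases and adaptors 6 were higher and 2 lower (median 0.55), led by Zyx (1.48), a protein of focal adhesions. Of 3 tested leukocyte integrin chains, 2 were also higher in cardiomyocyte-like nuclei (median 5.30). The part of RNA from leukocytes or other cells in the values of these lists was not tested.

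Of 11 genes of latent TGF-β activation, 5 were higher and 3 lower in cardiomyocyte-like nuclei (median 0.54). Tgfb2, a TGF-β ligand, went from 33.7 ± 2.56 to 378 ± 207 CPM (3.49), while Ltbp1, which holds latent TGF-β in the matrix, went from 244 ± 32.0 to 140 ± 33.7 CPM (-0.80). Of 9 other integrin chains tested, 3 were higher, a share not far from the 23.7% over all genes. In fibroblast-like nuclei 9 of 20 matrix ligands were higher and 7 lower, against 23.3% and 23.2% of all genes, and Tnc (tenascin C), a ligand of the Itga9 and Itgav integrins, went from 4.70 ± 1.67 to 1292 ± 424 CPM (8.17). Other integrin chains of fibroblast-like nuclei were split: Itga11, a collagen receptor chain, fell (-1.75) as did Itgb8 (-1.01), and Itga2 rose (1.23). In endothelial-like nuclei 11 of 22 matrix ligands were higher and 3 lower (17.8% and 16.4% of all genes), with Thbs1 (thrombospondin 1) at 4.05, and the laminin receptor chain Itga3 went from 20.0 ± 0.840 to 86.6 ± 12.3 CPM (2.12). In Enpa-I/R against NS-I/R, 9 of 19 activators and linkers were lower and 2 higher in cardiomyocyte-like nuclei (median -0.58), against 11.2% and 7.61% of all genes, with Actn1 at -1.29 and Flna at -1.24, and Tln2, the talin of heart muscle, at 0.79.

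Over the 21 means of class and group, the genes with the pattern most like Itgb6 were Gja3 (Pearson r 0.966), Cdh20 (0.963), Gsg1l, Asb14 and Osbp2 (each 0.958), among 11387 genes. These points share libraries and, for Itgb6, are set by the cardiomyocyte-like class. Within cardiomyocyte-like nuclei over 9 libraries (7263 genes) the closest were D3Ertd751e (0.996), Lgr6 (0.994), Csad, Zbtb20 and Smtn (each 0.993). Smtn stood at 509 ± 37.8, 62.1 ± 19.7 and 171 ± 30.2 CPM in the sham, saline I/R and enpatoran I/R groups, and Zbtb20 at 5922 ± 143, 1867 ± 386 and 3084 ± 180 CPM. The closest gene over classes and groups was for Itga5 Dnajb9 (0.839), for Itgb1 Actn4 (0.854), for Itga8 Kcnab1 (0.976) and for Itga7 Ednra (0.959).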

How the data were processed

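Per the file headers the deposited matrices hold UMI counts per gene and nucleus, written by Cell Ranger 8.0.0. The submitters' processing notes name Cell Ranger 6.1.1, Seurat and the builds GRCh38 and GRCm39, so the version and build behind the counts are not settled here. From the deposited counts, nuclei with at least 500 genes and at most 5% mitochondrial counts were kept (41979 of 56766 barcodes). Scrublet's highest scores were removed as doublets at 0.8% per 1000 barcodes, since its own calls were 0 to 3 in 7 of 9 libraries. Nuclei were clustered without the integrin and pathway genes (scanpy 1.11.5; 2000 variable genes, 30 components, 15 neighbours, Leiden resolution 1). Of 28 clusters 1 stayed unnamed. Counts of a class were added up within each library, and each class with 25 or more nuclei per library was fitted in edgeR 4.0.16 (R 4.3.3; low-count filter, TMM, quasi-likelihood test, Benjamini-Hochberg adjustment over all genes of the class, threshold 0.05), all 9 libraries in one fit. Itgb6 in cardiomyocyte-like nuclei was left out of all 3 comparisons' tests, since these share the libraries it was chosen on. Counting error and free RNA limit low levels. The members, the pathway lists and the parts described were chosen with earlier results of these data known. Named were all members, from each list up to 3 called genes of the largest change whose mean reached 10 CPM and whose groups lay apart, and the closest genes by Pearson r of log2(CPM + 10); a gene that the rule also named is not reported here. Alternatives were other size factors, DESeq2 1.42.0, no filter, a replicate block, 6 libraries and each library left out. Further ones were other limits on nuclei, doublets kept, resolution 2 and the clusters that both groups filled. Such shared clusters had at least 10 nuclei in every library of both groups.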

Additional observations from a re-analysis of the deposited data

Results flagged for a closer look

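Itga1 moved in opposite directions after I/R in different classes. Its log2 fold change of NS-I/R against NS-Sham was 0.90 in macrophage-like nuclei, against -1.28 in endothelial-like, -0.76 in fibroblast-like and -1.05 in pericyte-like nuclei. The difference between classes was not tested. The makeup of the macrophage-like class also shifted between these groups, as given above.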

How the results depend on the processing

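No called member of the non-leukocyte classes changed direction under any alternative run, nor did Itgb6 in cardiomyocyte-like nuclei in the 2 comparisons that hold NS-I/R. Macrophage-like nuclei, the genes of the pathway lists and members not called were not checked for direction. For NS-I/R against NS-Sham the count of 29 calls was 21 to 33 under the alternatives other than leaving out libraries, and 23 to 31 with 1 library left out, and 17 of the 29 calls passed in every alternative. For Enpa-I/R against NS-I/R the count of 9 was 16 without a low-count filter (59 pairs tested), 5 with the 6 libraries of the contrast alone and 5 within clusters found in both groups. With 1 library left out it was 2 to 23, with 23 without NS-I/R replicate 3 and 2 without Enpa-I/R replicate 3, and 2 of the 9 calls passed throughout. For Enpa-I/R against NS-Sham the count of 15 was 23 with 6 libraries and 10 to 25 with 1 library left out (25 without NS-I/R replicate 3), and 8 calls passed throughout. The causes were not tested. The fall in the share of Itgb6-positive cardiomyocyte-like nuclei was -23.1 percentage points after thinning and -57.3 without it. With the replicate number as a block the counts were 25, 8 and 16. Deviations of same-numbered libraries correlated at -0.206 to 0.168, with 3 of 63 pairs over 0.1, so the numbers were not taken to pair the samples. Classes with few nuclei limit what was detectable in smooth muscle-like and lymphatic endothelial-like nuclei.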
